A study of Mus musculus with 36 samples.

Results

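The comparison concerned the messenger RNA of whole mouse brain with and without Fmr1, in the preparation homogenised at the lower magnesium concentration (called the low preparation here). The members were the autosomal protein-coding genes of 6 RNA-seq libraries, 3 from WT (C57BL/6) and 3 from FMR1 KO mice, and 15284 autosomal genes of the 16614 genes in the count table were abundant enough to be tested. Each library came from 10 pooled whole brains of 5-day-old pups, flash frozen and homogenised in buffer with 2.5 mM MgCl2. All groups of the study shared that age and tissue, and the standard preparation (the M protocol, 10 mM MgCl2) gave 6 further RNA-seq libraries, 3 per genotype, which are set beside it here. The FMR1 KO mice lacked the FMRP protein, the study used FMR1 KO pups of both sexes, and the sex of the pups in a given pool is not given in the sources used here. The study calls its replicates biological preparations, and whether those of a genotype came from separate litters is not given, so that p-values measure the spread between preparations. Protein-coding genes were compared after the genes that took over 1% of the counts in any library had been left out.

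FMRP, the protein made from the X-linked gene Fmr1 and lost in Fragile X syndrome, binds messenger RNAs in neurons, travels with them in ribosome-containing granules and represses their translation, many of them coding for synaptic proteins. Its paralogs Fxr1 and Fxr2 and its partners Cyfip1 and Cyfip2, which tie it to the cap-binding factor eIF4E and to actin regulation, are the closest members of the same network. The RNA level of a gene measures transcription and decay, so the comparison asked which transcripts differ in amount between the genotypes before any measurement of ribosomes.

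The 6 libraries were of 2 kinds. Total counts were 87493056, 46349715 and 141505786 in WT 1, 2 and 3 and 108679989, 41586791 and 43240269 in FMR1 KO 1, 2 and 3. In WT 2, KO 2 and KO 3, 84.1%, 87.5% and 86.0% of the counts lay on 13 genes that each took over 1% in at least 1 library, whereas the same genes took 0.333%, 0.428% and 0.115% in WT 1, WT 3 and KO 1. Thus 1 WT and 2 FMR1 KO libraries were dominated by these genes, and the division crossed the genotypes unevenly. After the 13 genes and the genes of low count were taken out, 7369773, 5205874 and 6030233 counts were left in WT 2, KO 2 and KO 3, against 87144983 to 140808365 in the others.

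The largest shares were on Cmss1 and Filip1l, with 25.2%, 27.8% and 23.5% of all counts in WT 2, KO 2 and KO 3 for Cmss1. The Cmss1 gene (chr16:57302000-57606864 on GRCm38, minus strand) encloses Filip1l (chr16:57353093-57573126, plus strand), and the counts of the pair differed by at most 697 in any library, so that these counts cannot be assigned to either gene. Cdk8, a kinase of the Mediator complex, took 9.22%, 7.41% and 4.77% in the same order. The other 10 genes, among them Jarid2, Lars2, Gphn, Arsg and Zc3h7a, made up the rest, with a highest share of 8.20%, for Lars2 in KO 3. In the 6 libraries of the standard preparation the highest share of any of the 13 was 1.54%, for Zc3h7a. Genes that were kept still carried the division: 2494 autosomal genes had all 3 dominated libraries above the other 3, 41 of them by over 4-fold, and 3118 had them all below. KO 3 stood furthest apart, with Spearman correlations across genes of 0.868 to 0.939 with the other libraries against 0.944 to 0.988 among those.

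**Figure D1:**
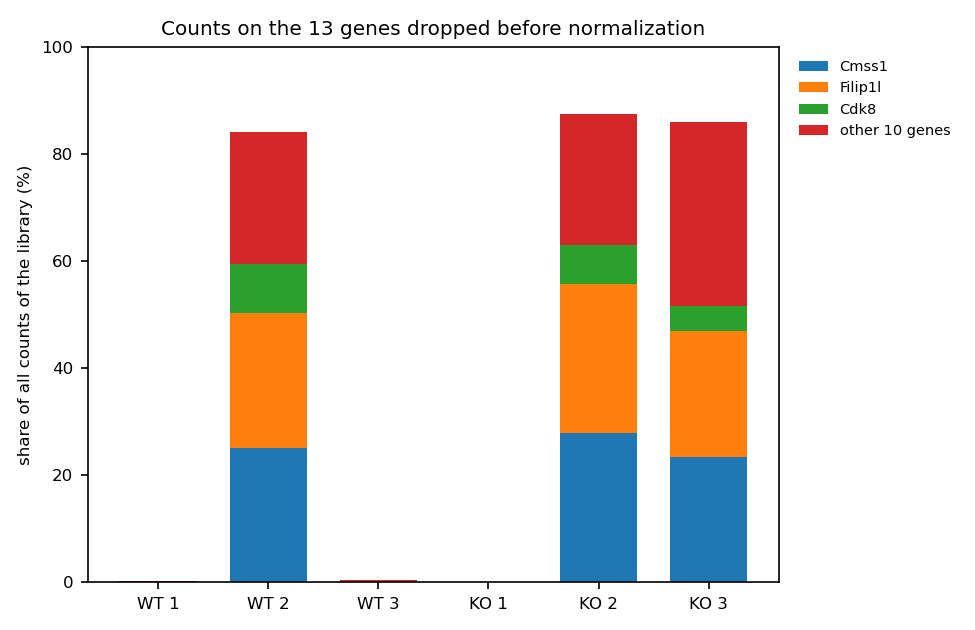
Share of all counts (%, y axis) taken by the 13 genes over 1% in any library, stacked as Cmss1, Filip1l, Cdk8 and the other 10 together, for the 6 low preparation libraries. The stacks reach 84.1%, 87.5% and 86.0% in WT 2, KO 2 and KO 3 and stay at or below 0.428% in the other 3.

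Most counts were even numbers. Of the genes with any count, 88.7%, 89.8% and 87.9% had an even count in WT 2, KO 2 and KO 3, and 62.2% to 67.3% in WT 1, WT 3 and KO 1, so that counts came mostly in steps of 2. Low values then rest on fewer independent observations than their count: 96.4% of the genes of KO 2 with a count of 1 or 2 had a count of 2. Counts are given below as deposited, and levels as CPM, the counts of a gene scaled to a common library size over the kept genes, with library sizes adjusted by the trimmed mean of M-values (TMM).

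Fmr1 was the check on the genotype labels. Its counts were 2960, 516 and 3962 in WT and 738, 74 and 108 in FMR1 KO, and its levels were 29.8, 78.0 and 23.3 CPM in WT 1, 2 and 3 and 5.99, 15.9 and 22.4 in FMR1 KO 1, 2 and 3. Every FMR1 KO library lay below every WT library, but KO 3 at 22.4 CPM was only just under WT 3 at 23.3. The log2 fold change was -1.59 (SE 0.58) and did not pass the threshold (adjusted p = 0.863, edgeR), whereas the standard preparation gave -1.91 (SE 0.10, adjusted p = 3.65e-05). Without KO 3 the low preparation gave -2.06. Genes of the Y chromosome stood at like levels in both genotypes of the low preparation, with Ddx3y, an RNA helicase, at 10.3, 15.1 and 10.5 CPM in WT 1, 2 and 3 and 14.1, 10.7 and 15.8 in FMR1 KO 1, 2 and 3. In the standard preparation Ddx3y had 38.0, 36.4 and 37.6 CPM in WT and 0.0969, 0.138 and 0.0614 in FMR1 KO, so that the preparations differed in the Y transcripts of their FMR1 KO pools. Y transcripts thus went with genotype in the standard preparation, and there genotype and the sex makeup of the pools cannot be told apart. This limit holds for its values below and for its part in the model of both preparations. The brain label went with neuronal transcripts at high level in all libraries: the 12 neuron markers summed to 6992, 9176 and 6478 CPM in WT and 7509, 8863 and 9512 in FMR1 KO.

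Between the genotypes, 0 of the 15284 autosomal genes passed an adjusted p of 0.05 (edgeR's quasi-likelihood test, Benjamini-Hochberg adjustment over 15866 genes of all chromosomes), a share of 0%. The smallest adjusted p of an autosomal gene was 0.863. At an unadjusted p under 0.05 there were 323 genes (2.11%), 278 of them higher in FMR1 KO (1.82%) and 45 lower (0.294%). That count depended on single libraries, with 51, 550 and 105 genes without WT 1, 2 or 3 and 2694, 285 and 93 without KO 1, 2 or 3. DESeq2 on the same genes called 1, Gm15446 (adjusted p = 0.000344, 0.00654%), and had 593 at an unadjusted p under 0.05 (3.88%). In 549 genes (3.59%) every FMR1 KO library lay above every WT library, and in 357 (2.34%) below. The median log2 fold change was -0.012 with quartiles of -0.33 and 0.36.

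The spread between libraries was larger than in the standard preparation. The median standard error of a log2 fold change was 0.40 in the low preparation against 0.14 for the same genes in the standard preparation, and the fitted dispersions were 0.1703 and 0.0287. Genes of 10 to 100 CPM had a median standard error of 0.34 and those under 1 CPM 1.005. The share of counts on the 13 dropped genes moved with genotype, being high in 1 of 3 WT and 2 of 3 FMR1 KO libraries, and with that share as a covariate 0 autosomal genes passed and 288 had an unadjusted p under 0.05 (edgeR).

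The genes of lowest p that were higher in FMR1 KO began with 4 whose libraries did not overlap. None passed the adjusted threshold in edgeR. Gm15446, a predicted zinc-finger gene (chr5:109923400-109943936), had 0.716, 0 and 0.853 CPM in WT 1, 2 and 3 and 3.43, 12.9 and 10.8 in FMR1 KO 1, 2 and 3. All FMR1 KO libraries were above all WT libraries, and the WT 2 library had a count of 0. The log2 fold change was 3.79 (SE 0.76), and the standard preparation gave 3.42 (SE 0.18, adjusted p = 3.65e-05), from 1.17, 1.08 and 0.821 CPM in WT and 11.3, 11.6 and 9.94 in FMR1 KO.

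Hist1h4m, 1 of the genes for histone H4 (chr13:21811746-21812147), had counts of 27, 2 and 37 in WT and 344, 14 and 2 in FMR1 KO, which gave 0.272, 0.302 and 0.218 CPM in WT 1, 2 and 3 and 2.79, 3.01 and 0.415 in FMR1 KO 1, 2 and 3. KO 1 and KO 2 stood far above WT and KO 3, with its 2 counts, only just. The log2 fold change was 3.06 (SE 0.81). In the standard preparation the same gene had 0.374, 1.0101 and 1.23 CPM in WT and 19.9, 34.7 and 18.1 in FMR1 KO and a log2 fold change of 4.78 (SE 0.42, adjusted p = 0.00207).

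A pair of neighbouring genes on chromosome 13 were higher together. Tmem267 (chr13:119488039-119611059), which codes for a membrane protein of little-known function, had 4.79, 4.54 and 4.07 CPM in WT 1, 2 and 3 and 13.1, 8.59 and 17.8 in FMR1 KO 1, 2 and 3. Ccl28 (chr13:119623819-119654359), a chemokine best known from mucosal epithelium, had 0.524, 1.21 and 0.353 CPM in WT 1, 2 and 3 and 2.83, 3.01 and 4.98 in FMR1 KO 1, 2 and 3. The groups did not overlap for either gene. The log2 fold changes were 1.56 (SE 0.37) for Tmem267 and 2.56 (SE 0.65) for Ccl28, and in the standard preparation 1.73 (SE 0.35, adjusted p = 0.593) and 1.75 (SE 0.25, adjusted p = 0.0691). The genes lie 12760 bases apart. Of the 9 other gene identifiers tested within 1 Mb of Tmem267, 0 had an unadjusted p under 0.05 (against 2.11% of all autosomal genes) and 0 had groups that did not overlap (against 3.59% above and 2.34% below). Nnt, the mitochondrial nicotinamide nucleotide transhydrogenase, is among these neighbours and had 12.1, 13.9 and 15.5 CPM in WT 1, 2 and 3 and 9.10, 10.7 and 14.1 in FMR1 KO 1, 2 and 3, with a log2 fold change of -0.30 (SE 0.31). It appears in the table under a pair of gene identifiers with nearly the same counts, and both are among the 9.

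On chromosome 19, Ide and Btaf1 had much the same pattern. Ide (chr19:37268743-37337852), the insulin-degrading enzyme that also cleaves amyloid beta, had 31.0, 42.3 and 42.2 CPM in WT 1, 2 and 3 and 58.5, 82.5 and 75.5 in FMR1 KO 1, 2 and 3. Btaf1 (chr19:36926079-37012752), an ATPase that strips TATA-binding protein from DNA, had 22.2, 31.1 and 23.2 CPM in WT 1, 2 and 3 and 42.0, 46.4 and 56.0 in FMR1 KO 1, 2 and 3. Each FMR1 KO library exceeded each WT library for both. Their log2 fold changes were 0.91 (SE 0.29) and 0.92 (SE 0.29), close to those of the standard preparation at 0.97 (SE 0.16) and 0.87 (SE 0.14), where the adjusted p-values were 0.149 and 0.165. These genes are 255991 bases apart. Of the 12 other genes tested within 1 Mb of Btaf1, 0 had an unadjusted p under 0.05 (against 2.11% of all autosomal genes). Among them 1, Hectd2, had groups that did not overlap, higher in FMR1 KO (against 3.59% of all autosomal genes). Btaf1 was named here after its values were seen.

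**Figure D2:**
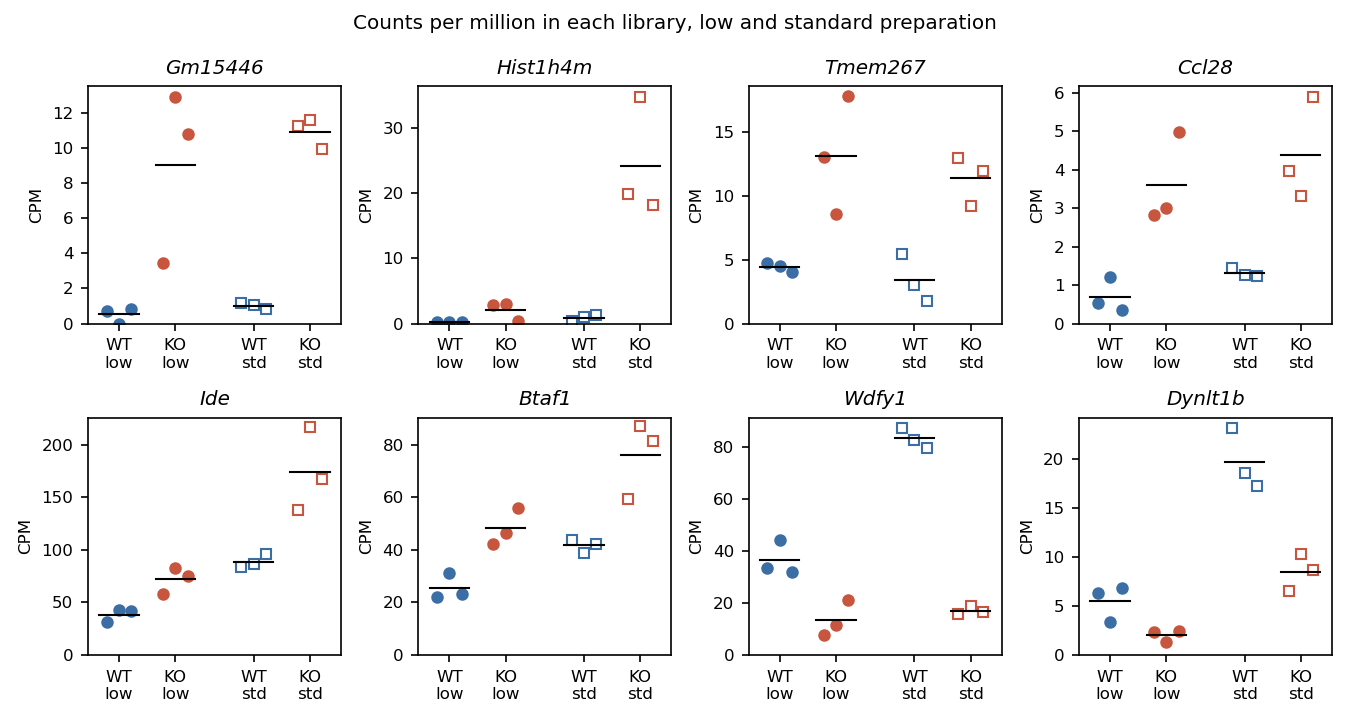
CPM (y axis, linear, from 0) of 8 autosomal genes in each library, with filled circles for the low and open squares for the standard preparation, WT in blue, FMR1 KO in red and black bars at the group means. Within each preparation the genotypes do not overlap for any of the 8, with Gm15446 in the low preparation at 3.43 to 12.9 CPM in FMR1 KO and 0 to 0.853 in WT.

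Ndufv2, a core subunit of respiratory complex I, was the other leading gene with separate groups at a moderate level, with 33.1, 45.4 and 26.0 CPM in WT 1, 2 and 3 and 60.6, 71.3 and 80.9 in FMR1 KO 1, 2 and 3 and a log2 fold change of 1.03 (SE 0.31). In the standard preparation its log2 fold change was 0.018 (SE 0.12), and the difference between the preparations did not pass the test (adjusted p = 0.929, edgeR interaction term). Ptprq, a receptor-type phosphatase of the inner ear, had 0.121, 0.302 and 0.330 CPM in WT 1, 2 and 3 and 0.520, 2.15 and 8.92 in FMR1 KO 1, 2 and 3.

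The other leading genes by p were high in KO 3 above all. Ttc25, a protein of ciliary outer dynein arm docking, had 0.504, 0.302 and 0.818 CPM in WT 1, 2 and 3 and 0.739, 2.58 and 424 in FMR1 KO 1, 2 and 3, so that 1 library of 6 gave the log2 fold change of 7.86 (SE 2.14), which was 1.27 without KO 3. Zfp105, a zinc-finger gene, had 4.52, 26.3 and 3.27 CPM in WT 1, 2 and 3 and 3.91, 254 and 2364 in FMR1 KO 1, 2 and 3, high in the 3 dominated libraries and highest in KO 3. Its log2 fold change was 6.31 with all libraries and 0.039 among WT 1, WT 3 and KO 1. Slc38a9, the lysosomal arginine sensor of mTORC1, had 5.74, 11.8 and 11.4 CPM in WT 1, 2 and 3 and 6.24, 66.4 and 123 in FMR1 KO 1, 2 and 3, and its log2 fold change of 2.75 became -0.44 among the 3 libraries with few counts on the dropped genes. Sytl3, a synaptotagmin-like protein, went from 5.61 to -0.19 in the same way and was -1.05 (SE 0.33) in the standard preparation.

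Over all 278 genes at an unadjusted p under 0.05 and higher in FMR1 KO, 94 had groups that did not overlap, 273 kept their direction without KO 3, and 36 kept an unadjusted p under 0.05 there. Of the 45 lower genes these numbers were 34, 45 and 18. Over all autosomal genes 3.59% lay above and 2.34% below without overlap. The genes were picked by p over all libraries, which the fit without KO 3 reuses, and groups that do not overlap fix the direction there. The kept directions are thus a description. Of the 323 genes, 90 had all 3 dominated libraries above the others and 10 had them below, beside 2494 and 3118 of all 15284.

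Among the lower genes, Wdfy1 came next after Asb10 by p. Wdfy1 (chr1:79702262-79776143), an endosomal adaptor of Toll-like receptor signalling, had 33.5, 44.1 and 32.0 CPM in WT 1, 2 and 3 and 7.73, 11.6 and 21.2 in FMR1 KO 1, 2 and 3. All FMR1 KO libraries were below WT, and KO 3 was the nearest to it. The log2 fold change was -1.46 (SE 0.40) and was -1.95 without KO 3. The standard preparation gave -2.30 (SE 0.11, adjusted p = 1.46e-05), and the difference between the preparations did not pass the test (adjusted p = 0.929, edgeR interaction term). Dynlt1b, a dynein light chain of a gene family with near-identical copies, had 6.37, 3.33 and 6.84 CPM in WT 1, 2 and 3 and 2.396, 1.29 and 2.49 in FMR1 KO 1, 2 and 3 and a log2 fold change of -1.41 (SE 0.47), beside -1.21 (SE 0.18, adjusted p = 0.118) in the standard preparation. Reads of such copies may be split between them, which makes its level uncertain.

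Asb10, a substrate receptor of ubiquitin ligases, had the lowest p of the lower genes, with counts of 38, 6 and 62 in WT and 2, 0 and 0 in FMR1 KO. Its levels were 0.383, 0.907 and 0.365 CPM in WT 1, 2 and 3 and 0.0162, 0 and 0 in FMR1 KO 1, 2 and 3, and since the counts of FMR1 KO were at or near 0 its fitted fold change is not given. Rbm38, an RNA-binding protein of the cell cycle, had 7.99, 5.75 and 7.11 CPM in WT 1, 2 and 3 and 3.54, 3.44 and 2.07 in FMR1 KO 1, 2 and 3 and a log2 fold change of -1.19 (SE 0.39). Ccdc88b, known from T cells, and Agt, the angiotensinogen made by astrocytes, had log2 fold changes of -1.43 (SE 0.52) and -1.04 (SE 0.39), also with no overlap. In the standard preparation these 3 were at 0.19, -0.00097 and -0.37, with standard errors of 0.13, 0.22 and 0.20.

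Col2a1, Hba-a2, Uncx and Hoxb6 were also among the 10 lower genes of lowest p. Col2a1, the collagen of cartilage, had 13.7, 13.5 and 24.0 CPM in WT 1, 2 and 3 and 9.70, 4.73 and 2.90 in FMR1 KO 1, 2 and 3. Hba-a2, an alpha-globin gene of red cells, had 21.7, 5.29 and 22.7 CPM in WT 1, 2 and 3 and 6.60, 4.94 and 2.697 in FMR1 KO 1, 2 and 3, with WT 2 and KO 2 alike. Uncx, a homeobox gene of the midbrain, spinal cord and somites, had 23.0, 9.07 and 23.5 CPM in WT 1, 2 and 3 and 9.23, 7.30 and 6.22 in FMR1 KO 1, 2 and 3. Hoxb6, a gene of spinal cord and hindbrain position, had 2.16, 0.907 and 1.67 CPM in WT 1, 2 and 3 and 0.390, 0.430 and 0.415 in FMR1 KO 1, 2 and 3. Their log2 fold changes were -1.50, -1.77, -1.28 and -2.00, and the groups did not overlap for Col2a1 and Hoxb6. Col2a1, Hba-a2 and Uncx were at 0.23 (SE 0.29), 0.0067 (SE 0.34) and 0.55 (SE 0.65) in the standard preparation. All 14 Hox genes tested, counted after Hoxb6 had been seen, summed to 31.4, 11.2 and 37.1 CPM in WT and 8.47, 16.3 and 17.6 in FMR1 KO, and 13 of them were lower in FMR1 KO. WT 2 lay among the FMR1 KO libraries. In the standard preparation the Hox sum ran from 0.110 to 47.2 CPM within WT alone, with the FMR1 KO libraries inside that range. The amount of hindbrain or spinal cord tissue in each pool was not measured, and its part in these genes was not tested.

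**Figure D3:**
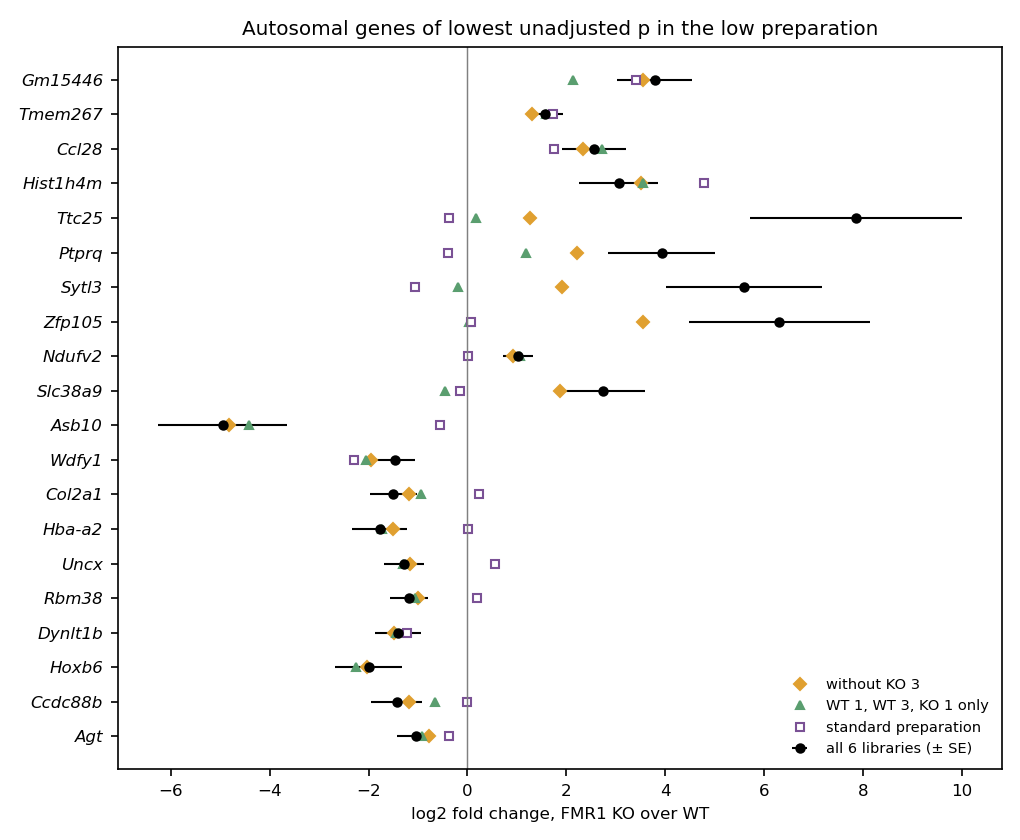
Log2 fold change, FMR1 KO over WT (x axis), of the 10 autosomal genes of lowest unadjusted p in each direction, with all 6 libraries (black, ± SE), without KO 3 (diamonds), among WT 1, WT 3 and KO 1 (triangles) and in the standard preparation (squares). Gm15446, Tmem267, Ccl28, Hist1h4m, Wdfy1, Dynlt1b, Agt and Asb10 keep one side of 0 in all 4, as do Ndufv2, Zfp105 and Ccdc88b with standard values of 0.018, 0.065 and -0.00097, whereas Ttc25 moves from 7.86 to 1.27 without KO 3. For genes whose groups do not overlap the low preparation values must share a sign. The fitted value of Asb10 rests on FMR1 KO counts at or near 0.

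With the same steps 4 of 15724 autosomal genes passed in the standard preparation (0.0254%), and 397 (2.52%) had an unadjusted p under 0.05. The 4 were Gm15446, Hist1h4m and Kcnh6 higher and Wdfy1 lower. In the low preparation 3 of the 4 had an unadjusted p under 0.05 in the same direction. Kcnh6, a voltage-gated potassium channel of the ether-a-go-go family, had 5.43, 2.42 and 7.86 CPM in WT 1, 2 and 3 and 11.9, 8.59 and 6.85 in FMR1 KO 1, 2 and 3, overlapping between the genotypes, and a log2 fold change of 0.78 (SE 0.46) beside 1.20 (SE 0.10, adjusted p = 0.00141). Gabra2, the GABA-A receptor subunit alpha 2, had 39.5, 177 and 57.5 CPM in WT 1, 2 and 3 and 15.7, 48.8 and 64.3 in FMR1 KO 1, 2 and 3, with WT 2 far above the rest, and log2 fold changes of -1.09 (SE 0.63) in the low and -1.12 (SE 0.17, adjusted p = 0.125) in the standard preparation. That these genes lead the standard preparation was known when they were chosen, so their shared direction is a description.

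Of the low preparation genes at an unadjusted p under 0.05 that were tested in both preparations, 142 of 276 higher genes and 26 of 44 lower genes had the same direction in the standard preparation. Of the 377 standard preparation genes at an unadjusted p under 0.05 that were tested in both, 264 had the same direction in the low preparation. The share with the same direction over all genes tested in both was not counted, so these counts stand without it. At an unadjusted p under 0.05 in both, there were 21 genes. Of these, 17 had the same direction, which is 5.31% of the 320 low preparation genes tested in both and 4.51% of the 377 standard preparation genes tested in both, and 4 had opposite directions. Beside the genes above, those with the same direction were Gm16867, Rnf2, Gm49345, Zfp729a, Orc3, Tipin and Nop58 on the higher side and Col3a1 and Ntsr2 on the lower. Rnf2, the ubiquitin ligase of Polycomb complex 1, had 12.2, 16.3 and 15.0 CPM in WT and 22.6, 26.2 and 37.6 in FMR1 KO, with log2 fold changes of 0.99 and 0.21. Zfp729a and Gm49345 overlap on chromosome 13 and may share reads. Gm16867, a predicted coding gene, had 0.222, 0.151 and 0.288 CPM in WT 1, 2 and 3 and 0.853, 1.29 and 0.830 in FMR1 KO 1, 2 and 3 from at most 105 counts per library. These genes were picked after their values were seen.

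With both preparations in 1 model and preparation as a term, 8 of 15785 autosomal genes passed (0.0507%), and 377 (2.39%) had an unadjusted p under 0.05. Gm15446, Hist1h4m, Ccl28, Tmem267, Btaf1, Gm16867 and Ide were higher and Wdfy1 was lower. The log2 fold changes of this model were 3.53 for Gm15446 (SE 0.37, adjusted p = 0.00324), 4.18 for Hist1h4m (adjusted p = 0.00411), -1.91 for Wdfy1 (adjusted p = 0.00567), 2.13 for Ccl28 (adjusted p = 0.0397) and 0.93 for Ide (adjusted p = 0.0476). Without KO 3 of the low preparation 5 passed, and Tmem267, Btaf1 and Ide were then at an adjusted p of 0.0559. Leaving out replicate 1, 2 or 3 of all groups left 0, 0 and 2 genes. No autosomal gene passed in the test of a genotype difference that differs between the preparations (0%), and 376 (2.38%) had an unadjusted p under 0.05. This test and the model of both preparations fit 1 dispersion per gene over all their libraries. The dispersions fitted apart were 0.1703 in the low and 0.0287 in the standard preparation. All p-values of these fits, also those of the interaction given elsewhere, thus assume a like spread that the preparations did not have.

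The levels of Fxr1, Fxr2, Cyfip1 and Cyfip2 overlapped between the genotypes. Fxr1 had 37.2, 57.8 and 30.8 CPM in WT 1, 2 and 3 and 35.2, 49.8 and 67.9 in FMR1 KO 1, 2 and 3 and a log2 fold change of 0.28 (SE 0.36). Fxr2 had 119, 99.8 and 78.3 CPM in WT 1, 2 and 3 and 102.5, 100.3 and 54.4 in FMR1 KO 1, 2 and 3 and -0.21 (SE 0.34). Cyfip1 had 59.2, 70.9 and 66.2 CPM in WT 1, 2 and 3 and 69.4, 58.4 and 58.7 in FMR1 KO 1, 2 and 3 and -0.071 (SE 0.26). Cyfip2 had 362, 380.4 and 404 CPM in WT 1, 2 and 3 and 440.2, 384 and 720.0 in FMR1 KO 1, 2 and 3 and 0.43 (SE 0.35), with KO 3 above the other 5. Without KO 3 the log2 fold change of Cyfip2 was 0.11. Of the list of 20 FXR family members and granule partners 0 had an unadjusted p under 0.05 (against 2.11% of all autosomal genes), and the median log2 fold change was 0.14 (0.030 without KO 3). The lowest p was that of Stau2, a double-stranded RNA-binding protein of dendritic granules, with 84.1, 98.3 and 84.8 CPM in WT 1, 2 and 3 and 98.2, 145 and 200.2 in FMR1 KO 1, 2 and 3. Its log2 fold change was 0.73 (SE 0.33), which was 0.44 without KO 3.

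The messenger RNAs that FMRP binds were taken from a pair of published lists used by the study. Of the Darnell list 731 autosomal genes were tested. None had an adjusted p under 0.05, 0 were higher (against 1.82% of all autosomal genes) and 1 lower (against 0.294%) at an unadjusted p under 0.05, 7 had all FMR1 KO libraries above WT (0.958%, against 3.59% of all autosomal genes) and 15 had them below (2.05%, against 2.34%). The median log2 fold change was -0.13, against -0.012 over all genes, and 279 of the 731 were above 0. Over all autosomal genes 7492 of 15284 were above 0, the share to set beside such counts of this and later lists. The Darnell median was -0.043 without KO 3, -0.17 among the dominated libraries and 0.018 among the 3 libraries with few counts on the dropped genes. It kept its sign in 24 of 25 alternatives and was 0.02 in the standard preparation. The gene with p under 0.05 was Tmem8b, a membrane protein, with 88.3, 75.3 and 86.2 CPM in WT 1, 2 and 3 and 57.8, 50.7 and 42.1 in FMR1 KO 1, 2 and 3, which did not overlap, and a log2 fold change of -0.73 (SE 0.27) beside 0.17 (SE 0.12) in the standard preparation.

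Of the Maurin list 257 genes were tested and none had an unadjusted p under 0.05 (against 2.11% of all autosomal genes). Their median was 0.02, with 5 genes above (1.95%, against 3.59% of all autosomal genes) and 3 below (1.17%, against 2.34%) without overlap. Its genes of lowest p were Unc13c, a synaptic vesicle priming factor, with 33.0, 48.1 and 41.5 CPM in WT 1, 2 and 3 and 42.7, 61.9 and 93.0 in FMR1 KO 1, 2 and 3, Dlg2, the scaffold PSD-93, with 229.8, 278 and 298 CPM in WT 1, 2 and 3 and 231, 474 and 643 in FMR1 KO 1, 2 and 3, and Mef2c, an activity-regulated transcription factor, with 241, 493 and 284 CPM in WT 1, 2 and 3 and 319.5, 547 and 951 in FMR1 KO 1, 2 and 3. In each of these KO 3 was the highest library. The log2 fold changes were 0.69 (SE 0.35), 0.74 (SE 0.41) and 0.84 (SE 0.47), and without KO 3 they were 0.35, 0.38 and 0.35. The messenger RNAs whose ribosomes resist run-off, a list the study uses for stalled ribosomes, had 174 members tested, none with an unadjusted p under 0.05 (against 2.11% of all autosomal genes). Without overlap, 3 lay above WT (1.72%, against 3.59%) and 1 below (0.575%, against 2.34%). The median of the list was -0.13, which ran from -0.25 to 0.067 with 1 library left out, and was -0.43 among the dominated libraries and 0.098 among the other 3. Among the leading members by p were Celf4, a neuronal splicing and stability factor, at 0.92 (SE 0.52), and Vgf, a secreted neuropeptide precursor, at -0.88 (SE 0.51). Without KO 3 these were 0.27 and -0.45, and in the standard preparation 0.093 and -0.21.

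Genes of the receptor and synaptic pathways linked to FMRP also held no gene at an unadjusted p under 0.05, against 2.11% of all autosomal genes. In lists this small a count of 0 is near that share. Group 1 metabotropic glutamate receptor and mTOR signalling, which couple synaptic activity to translation, had 34 members tested, 0 with an unadjusted p under 0.05 and a median of -0.14. Without overlap, 2 members lay above WT (5.88%, against 3.59% of all autosomal genes) and 2 below (5.88%, against 2.34%). Eif4e, the cap-binding factor, had 30.0, 55.0 and 27.0 CPM in WT 1, 2 and 3 and 39.2, 60.6 and 90.1 in FMR1 KO 1, 2 and 3 and was the leading member of this list by p (log2 fold change 0.76, SE 0.40). Of 21 GABA signalling genes, 22 glutamate receptors, 23 postsynaptic scaffolds, 29 presynaptic genes and 37 ion channels, 0 had an unadjusted p under 0.05 (against 2.11% of all autosomal genes). The medians were -0.13, 0.035, -0.064, 0.007 and -0.12. Without KO 3 they were 0.0074, 0.090, -0.091, 0.082 and -0.060, and that of the receptor and mTOR list was -0.086. With any 1 library left out the glutamate receptor median ran from -0.27 to 0.37 and the GABA median from -0.28 to 0.0074. Among the dominated libraries these were -0.37 and -0.45, and in the standard preparation -0.21 and -0.032. Gad2, a synthetic enzyme of GABA, had 72.5, 71.1 and 82.0 CPM in WT 1, 2 and 3 and 86.9, 99.3 and 130.1 in FMR1 KO 1, 2 and 3, without overlap, and a log2 fold change of 0.49 (SE 0.28). Grm8, a presynaptic metabotropic receptor, had 1.03 (SE 0.49), and Grin2d, an NMDA receptor subunit, -0.62 (SE 0.35). Nlgn1, the postsynaptic adhesion molecule, had 0.77 (SE 0.41), Snap25, of the vesicle fusion machinery, 0.69 (SE 0.40), and the potassium channels Kcnh7 and Kcna1 0.83 (SE 0.42) and -0.55 (SE 0.31). The log2 fold changes of the genes named here were nearer to 0 without KO 3. There Eif4e was at 0.42, Gad2 at 0.30, Grm8 at 0.50, Grin2d at -0.37, Nlgn1 at 0.47, Snap25 at 0.40, Kcnh7 at 0.49 and Kcna1 at -0.37. Grm8, Nlgn1 and Kcnh7 had the opposite sign in the standard preparation, at -0.68 (SE 0.33), -0.49 (SE 0.30) and -0.21 (SE 0.22).

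The 22 immediate early genes, which report recent neuronal activity, had a median of -0.22 with 5 above 0. The median was -0.047 without KO 3, 0.12 among the dominated libraries and 0.0027 in the standard preparation. Their sum was 1066, 538 and 683 CPM in WT and 779.7, 557 and 476 in FMR1 KO. WT 1 held the highest and KO 3 the lowest. Npas4 and Arc, a pair of activity-dependent genes, had log2 fold changes of -0.68 (SE 0.41) and -0.68 (SE 0.49), and -0.56 and -0.34 without KO 3. The 38 chromatin regulators had a median of 0.16, which was 0.024 without KO 3, and the 42 developmental transcription factors a median of -0.091 with 1 member at an unadjusted p under 0.05 (against 2.11% of all autosomal genes), En2 of the midbrain and cerebellum, at -0.92 (SE 0.40) beside 0.73 (SE 0.73) in the standard preparation.

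Cytosolic ribosomal proteins had the highest count, though not the highest share, of genes at an unadjusted p under 0.05 among the lists. Of 76 tested, 5 had an unadjusted p under 0.05 and were higher in FMR1 KO (against 1.82% of all autosomal genes), 0 were lower (against 0.294%), and 10 had all FMR1 KO libraries above WT (13.2%, against 3.59% of all autosomal genes). Rpl31 had 32.0, 46.3 and 36.3 CPM in WT 1, 2 and 3 and 84.5, 63.2 and 65.2 in FMR1 KO 1, 2 and 3, Rpl35 75.04, 75.3 and 45.9 CPM in WT 1, 2 and 3 and 114, 124 and 117 in FMR1 KO 1, 2 and 3 and Rpl28 114, 172 and 91.8 CPM in WT 1, 2 and 3 and 189.6, 273 and 218 in FMR1 KO 1, 2 and 3. The log2 fold changes were 0.90 (SE 0.29), 0.86 (SE 0.30) and 0.85 (SE 0.34), and for Rpl17 0.76 (SE 0.29). The summed level of the list did not separate the genotypes, at 10055, 7625 and 7353 CPM in WT and 12473, 7998 and 7748 in FMR1 KO, with KO 1 the highest. The list's median was 0.14, and it was -0.14 without KO 1, 0.52 among WT 1, WT 3 and KO 1 and -0.20 in the standard preparation. Ribosomal protein genes have many processed copies, so that the counting of their reads is uncertain.

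Of 69 nuclear genes of the respiratory chain, 2 were higher at an unadjusted p under 0.05, against 1.82% of all autosomal genes, Ndufv2 above and Uqcrc2, a core protein of complex III, with 69.3, 87.1 and 63.6 CPM in WT 1, 2 and 3 and 137, 103 and 116 in FMR1 KO 1, 2 and 3 (log2 fold change 0.70, SE 0.28). In all, 7 genes had all FMR1 KO libraries above WT (10.1%, against 3.59% of all autosomal genes) and 0 below (against 2.34%). The median was -0.071, and it was 0.10 without KO 3 and -0.037 in the standard preparation.

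The list of replication-dependent histones, which also holds the replication-independent linker histone H1f10, had a negative median in the low preparation. Of 63 tested, 6 had a log2 fold change above 0, 1 was lower at an unadjusted p under 0.05 (against 0.294% of all autosomal genes) and 1, Hist1h4m, was higher (against 1.82%), and the median was -0.63, with -0.33 without KO 3 and -1.26 without KO 1. Their summed level was 1808, 932 and 1574 CPM in WT and 1505, 899.8 and 588 in FMR1 KO. The dominated libraries WT 2, KO 2 and KO 3 held the lowest sums, and WT 1, WT 3 and KO 1 the highest. H2ac4, the gene of lowest p among the lower ones, had 19.8, 5.14 and 20.9 CPM in WT 1, 2 and 3 and 9.03, 2.58 and 0.830 in FMR1 KO 1, 2 and 3 (log2 fold change -1.75, SE 0.74). The median was -0.072 among the dominated libraries alone and -0.28 among the others, and 0.042 in the standard preparation. The 27 proliferation genes had a median of 0.16, which was -0.053 without KO 3 and 0.29 in the standard preparation. Without overlap, 3 of them lay above WT (11.1%, against 3.59% of all autosomal genes) and 2 below (7.41%, against 2.34%). Of the list, Cdc20, the mitotic activator, had 15.3, 17.5 and 11.3 CPM in WT 1, 2 and 3 and 11.1, 6.23 and 6.64 in FMR1 KO 1, 2 and 3 (log2 fold change -0.84, SE 0.36), and Pcna, the DNA polymerase clamp, had 33.7, 34.2 and 27.7 CPM in WT 1, 2 and 3 and 44.1, 52.0 and 45.6 in FMR1 KO 1, 2 and 3 (log2 fold change 0.57, SE 0.27), each without overlap and in opposite directions. In the standard preparation they were at 0.22 (SE 0.25) and 0.17 (SE 0.12).

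The 27 interferon and innate immunity genes had a median of 0.50, with values from -0.92 to 1.94 and 0 at an unadjusted p under 0.05 (against 2.11% of all autosomal genes). That median was 0.12 without KO 3, -0.27 without KO 1, 0.011 among the 3 libraries with few counts on the dropped genes and -0.14 in the standard preparation. The 27 heat shock and unfolded protein genes had a median of 0.037, with sums of 3250.0, 7779 and 3193 CPM in WT and 3957, 6777 and 9007 in FMR1 KO, high in the 3 dominated libraries whatever the genotype. The 35 growth and guidance genes had a median of -0.056 and 0 at an unadjusted p under 0.05 (against 2.11% of all autosomal genes).

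**Figure D4:**
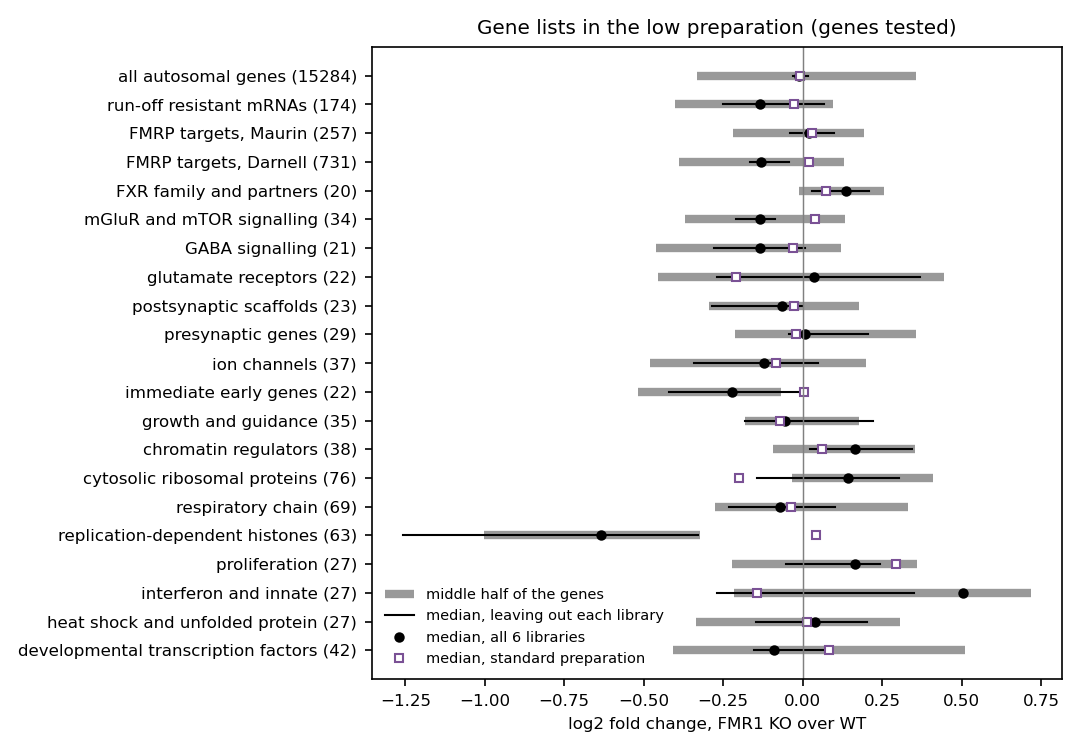
Median log2 fold change, FMR1 KO over WT (x axis), of the genes of each list other than the cell type markers, and of all autosomal genes, with the quartiles of the genes in grey, the range of the median when each library is left out as a thin line, and the median in the standard preparation as squares; the number tested stands in brackets. The medians are -0.63 for the replication-dependent histones and 0.50 for the interferon list, and those of the other lists drawn lie between -0.22 and 0.16.

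Cell types other than neurons were compared through their markers, since in bulk RNA fewer cells of a type and less RNA per cell cannot be told apart. The 13 oligodendrocyte genes tested had a median of -0.47 (-0.31 without KO 3 and -0.19 in the standard preparation) and 2 above 0, and their sum was 933, 807 and 1053 CPM in WT and 671, 789 and 524 in FMR1 KO. Cldn11, a myelin tight-junction protein, had 11.1, 7.86 and 24.2 CPM in WT 1, 2 and 3 and 6.46, 8.16 and 2.07 in FMR1 KO 1, 2 and 3 (log2 fold change -1.37, SE 0.55). The 10 meningeal and fibroblast genes had a median of -0.21, which ran from -0.86 to 0.16 over the alternatives and was -0.55 in the standard preparation, with 3 above 0. Of the 10, 1 had all FMR1 KO libraries above WT (10%, against 3.59% of all autosomal genes) and 2 had them below (20%, against 2.34%). The 10 genes summed to 596, 439.7 and 679 CPM in WT and 483, 447 and 225 in FMR1 KO. Of these Col3a1 had 51.3, 57.2 and 71.3 CPM in WT 1, 2 and 3 and 41.1, 30.5 and 10.4 in FMR1 KO 1, 2 and 3, without overlap (log2 fold change -1.12, SE 0.45, and -0.67 with SE 0.27 in the standard preparation). The 5 red cell genes summed to 92.0, 31.3 and 99.9 CPM in WT and 61.7, 35.02 and 22.8 in FMR1 KO and all had a log2 fold change below 0, with a median of -1.07. This median was -0.66 without KO 3, -1.97 without KO 1 and -0.17 in the standard preparation. For these 3 lists KO 3 held the lowest sum of the 6.

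Astrocyte, microglial, interneuron, endothelial and choroid plexus lists had medians of -0.017, -0.33, -0.21, 0.35 and -0.062, and none of their genes had an unadjusted p under 0.05 (against 2.11% of all autosomal genes). The endothelial median was 0.030 without KO 3, -0.90 among WT 1, WT 3 and KO 1 and -0.30 in the standard preparation, and the interneuron median was 0.22 among WT 1, WT 3 and KO 1. The microglial median was -0.085 without KO 3. The neuron list had a median of 0.28 and 9 of 12 above 0, and its median was 0.095 without KO 3, 0.58 without KO 1 and 0.066 in the standard preparation. Pituitary transcripts appeared in some pools: the 3 genes of the pituitary and retina list that were tested summed to 1.39, 1.81 and 12.8 CPM in WT and 16.7, 8.59 and 4.98 in FMR1 KO. The part of these tissue differences in the genes named above was not tested.

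Differences also moved with the length of the gene's exons. With the autosomal genes in 5 bins of like size by length, the shortest bin, up to 2395 bases, had a median log2 fold change of -0.12, and the longest, from 7462 bases, one of 0.14. Within WT, the dominated library WT 2 differed from WT 1 and WT 3 by medians of -0.24 and 0.16 in the same bins, and within FMR1 KO, KO 2 and KO 3 differed from KO 1 by -0.23 and 0.24. The ribosomal protein and histone genes are short, with median exon lengths of 1776 and 539 bases, and the Darnell and Maurin targets long, with 8357 and 11262, against 4333 over all genes. The histone median of -0.63 had the direction of the trend for short genes, and the Maurin median was near 0 at 0.02. The ribosomal protein median of 0.14 and the Darnell median of -0.13 had the opposite direction to the trend. The direction of the length trend was that of the dominated libraries in both genotypes, and its part in the list medians was not tested.

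**Figure D5:**
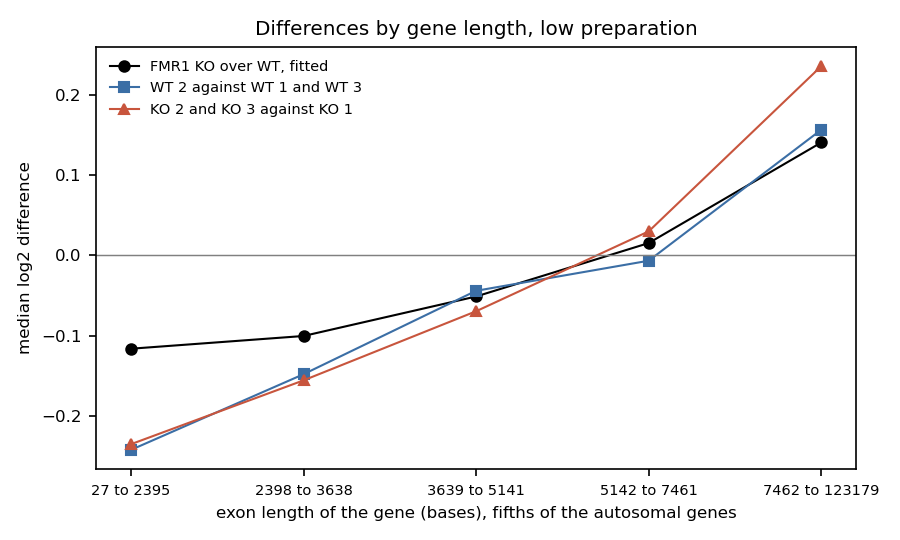
Median log2 difference (y axis) by bin of exon length (x axis) for FMR1 KO over WT and, within each genotype, for the dominated libraries over the others. All 3 lines climb from below 0 in the shortest bin, at -0.12, -0.24 and -0.23, to above 0 in the longest.

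Among the 3 libraries with few counts on the dropped genes, WT 1 and WT 3 against KO 1 alone, 30 of 15711 autosomal genes passed (0.191%), and 612 (3.9%) had an unadjusted p under 0.05. Of the 30, 8 were higher and 22 lower in KO 1. This fit assumes that KO 1 varies as the WT pair does, and it describes that library. The higher genes included Hist1h4m (log2 fold change 3.55), Ccl28 (2.73), Gm15446 (2.15) and Tmem267 (1.59), and the lower genes included Wdfy1 (-2.06) and Gabra2 (-1.61), together with Hox genes such as Hoxc4 (-3.90) and Hoxb6 (-2.26) and the globin Hba-a2 (-1.72). Among the 3 dominated libraries, WT 2 against KO 2 and KO 3, 0 genes passed and 459 had an unadjusted p under 0.05. There the log2 fold changes were -1.40 for Wdfy1, 1.57 for Tmem267, 1.74 for Ccl28, 2.42 for Hist1h4m, 0.93 for Ide and 0.75 for Btaf1. Since the groups of these genes did not overlap, any split of the 6 libraries gives them the same direction. This fit assumes that WT 2 alone varies as the FMR1 KO pair does.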

How the data were processed

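RNA from whole brain homogenate was sequenced. The authors trimmed reads with Cutadapt (2.10), removed ribosomal and noncoding RNA with Bowtie2 (2.3.5), aligned to GRCm38 with STAR (2.7.8a), marked duplicates with Picard and removed them with SAMtools (1.19.2), and deposited raw counts per gene from featureCounts (2.2.0), per the submitters' notes and the study's methods. Here the deposited counts of protein-coding genes were used, after 13 genes with over 1% of counts in any library had been dropped. Genes of low count were filtered with edgeR (4.0.16) in R (4.3.3), and the quasi-likelihood test with TMM scaling and Benjamini-Hochberg adjustment compared 3 libraries per genotype. Standard errors were derived from the F statistic. DESeq2 (1.42.0), limma voom (3.58.1), other scalings, filters and left-out libraries were alternatives. Positions come from GENCODE M21, which matched 16594 of 16614 genes. The code was tested on simulated data. Genes named were Fmr1, dropped genes (not all are reported here), the 10 of lowest unadjusted p in each direction, genes known from earlier results, FMRP paralogs and partners, and up to 4 members per list of lowest p; others are said to have been chosen after their values were seen. Members and lists were chosen with earlier results of these data known. Total counts ran from 41586791 to 141505786 per library.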

Additional observations from a re-analysis of the deposited data

Results flagged for a closer look

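Ddx3y, Uty, Kdm5d and Eif2s3y of the Y chromosome differed between the preparations in their genotype difference, which passed the edgeR interaction test after adjustment. The genotype difference (log2, FMR1 KO over WT) in the low preparation minus that in the standard preparation was 8.72 for Ddx3y, 9.13 for Uty, 10.93 for Kdm5d and 14.08 for Eif2s3y. In the low preparation both genotypes had these transcripts at like levels, and in the standard preparation they were at or near 0 in FMR1 KO, so that the size of each fitted value depends on the prior count. The sex of the pups in each pool is not given in the sources used here.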

How the results depend on the processing

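The count of 0 called autosomal genes in the low preparation stayed at 0 under every other scaling, filter, covariate and left-out library that was run, except for DESeq2, which called 1, and the 3 libraries with few counts on the dropped genes, which gave 30. There Fmr1 was at -2.12 and passed, and 8 members of the gene lists were called. The genes at an unadjusted p under 0.05 ranged from 26 without replicate 3 to 2694 without KO replicate 1. With the mean of its genotype taken off each library, the correlations of same-numbered libraries were 0.50, 0.32 and -0.25. Over all pairs they were positive between libraries of the same kind, dominated or not, and negative between the kinds. They therefore cannot show whether replicate numbers pair the samples. With a replicate block 0 genes were called and 379 had an unadjusted p under 0.05. Counts divided by 2, an alternative chosen after seeing the data, gave 0 and 272. Leaving out a replicate gave 2 to 8 called genes in the standard preparation and 0 to 2 in both preparations together, which gave 5 without KO 3 of the low preparation, also chosen after seeing the data. Over 59 of the autosomal genes named, 1432 of 1455 values kept direction and side of the threshold, 10 passed it newly and 13 turned. Among the libraries with few counts on the dropped genes the turned values were -0.19 for Sytl3, -0.44 for Slc38a9, 0.086 for Fxr2, 0.17 for Cyfip1, -0.17 for Dlg2, -0.27 for Celf4, -0.11 for Grm8, -0.13 for Nlgn1 and -0.0068 for Kcnh7. The others were -0.16 for Fxr1 without replicate 3, 0.0041 for Fxr2 with limma voom and 0.037 without KO replicate 3, and 0.021 for Cyfip1 without replicate 2. Over all left-out libraries Fxr1 ran from -0.16 to 0.57, Fxr2 from -0.34 to 0.037 and Cyfip1 from -0.21 to 0.021. The cause was not tested. Depth limits the low genes of WT 2, KO 2 and KO 3, which kept 5205874 to 7369773 counts.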
